A study of Homo sapiens with 24 samples.

Results

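A set of 9 genes that report on the antiviral interferon system was followed after knockdown of a pair of long non-coding RNAs in prostate cancer cells. The set holds 7 interferon-induced genes, GBP1, IFIT1, IFIT2, IFIT3, ISG15, IRF1 and MX1, and 2 sensors of foreign RNA, RIGI (formerly DDX58) and IFIH1. They were selected by name, through the RefSeq accession of their probes, with earlier results of these data already known. All 9 were present on both array versions used, by 11 probes, among 20992 named genes at 24 h and 22439 at 48 h. The question was whether any of the siRNAs on its own was followed by an innate response of the cell.

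Expression was measured in LNCaP, an androgen-sensitive human prostate cancer cell line. The cells were electroporated with si-A1, directed at TAPIR-1, with si-A2, directed at TAPIR-2, or with the scrambled control si-SCRL, so the control cells also received pulses and a double-stranded RNA. No group without siRNA was analysed here, which means that a change shared by all 3 siRNAs cannot be seen. RNA of 4 biological replicates per siRNA was taken at 24 h and of 4 at 48 h, 1 siRNA was used per target, and every group came from the same cell line. The array of si-A2 replicate 2 at 48 h was dim and was left out, so 23 of 24 arrays were used and that group held 3.

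Double-stranded RNA in the cytoplasm is recognised by the helicases RIG-I (gene RIGI) and MDA5 (gene IFIH1), which signal through MAVS to switch on interferon genes. Secreted interferon binds receptors on the cell surface and acts through JAK kinases and STAT proteins. Type I interferon acts on genes through the interferon-stimulated response element (ISRE), and interferon gamma through the gamma-activated site (GAS). Both sensor genes are themselves induced by interferon, and designed siRNAs can trigger the pathway when their sequence or length is unsuited.

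The promoters were searched for both elements, and 4 of them are printed because the results below turn on GBP1 and ISG15, with IFIT1 and IRF1 beside them as well-known targets of type I interferon and interferon gamma. RefSeq promoter windows on GRCh38.p14, from 250 bases before to 50 after a transcript start, were found for 8 of the 9 genes, 11 windows in all. IFIT2 had no window. The ISRE was searched as GAAA, any 2 bases and GAAA again, and the GAS as TTC, any 3 bases and GAA, on both strands. Of the 8 genes, 6 had an ISRE match and 2 a GAS match. Over all 35116 windows of the same length, 3.57% held the ISRE letters and 7.66% the GAS letters. In 1 of the MX1 windows an ISRE and a GAS match overlapped, and RIGI had neither in its window. Capitals mark the matches, on either strand, and each sequence is given 5′ to 3′ along its gene.
GBP1 (chr1:89065159-89065458, minus strand, 1 ISRE match 127 bases before the start): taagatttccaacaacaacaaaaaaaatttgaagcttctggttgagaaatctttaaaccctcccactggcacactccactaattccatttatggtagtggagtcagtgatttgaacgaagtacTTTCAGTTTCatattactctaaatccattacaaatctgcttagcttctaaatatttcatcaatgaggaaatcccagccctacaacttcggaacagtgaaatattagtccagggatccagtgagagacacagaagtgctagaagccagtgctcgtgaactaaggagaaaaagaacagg
ISG15 (chr1:1013247-1013546, plus strand, 2 overlapping ISRE matches, 113 and 107 bases before the start): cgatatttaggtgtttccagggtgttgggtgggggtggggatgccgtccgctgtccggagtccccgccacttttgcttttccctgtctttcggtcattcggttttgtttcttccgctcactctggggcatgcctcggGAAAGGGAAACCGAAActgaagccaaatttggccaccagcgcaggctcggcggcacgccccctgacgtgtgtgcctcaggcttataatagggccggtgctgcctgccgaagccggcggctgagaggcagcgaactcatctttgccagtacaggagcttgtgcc
IFIT1 (chr10:89392373-89392672, plus strand, 2 ISRE matches, 116 and 103 bases before the start): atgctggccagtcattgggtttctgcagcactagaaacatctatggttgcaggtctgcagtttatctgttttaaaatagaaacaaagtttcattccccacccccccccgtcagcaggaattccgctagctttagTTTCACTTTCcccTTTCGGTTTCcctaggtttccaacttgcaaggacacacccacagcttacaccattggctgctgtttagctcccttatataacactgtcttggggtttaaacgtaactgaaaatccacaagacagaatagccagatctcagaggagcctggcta
IRF1 (chr5:132490724-132491023, minus strand, 1 GAS match 124 bases before the start): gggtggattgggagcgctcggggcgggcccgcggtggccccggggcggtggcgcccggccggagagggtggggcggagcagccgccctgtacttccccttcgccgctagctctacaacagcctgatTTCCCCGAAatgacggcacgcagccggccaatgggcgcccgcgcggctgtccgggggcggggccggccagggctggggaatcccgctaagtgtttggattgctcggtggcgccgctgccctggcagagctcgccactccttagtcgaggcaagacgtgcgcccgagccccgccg

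In the genome the 9 genes lie at 7 places. On GRCh38.p14, ISG15 spans chr1:1013497-1014540 and GBP1 chr1:89052319-89065208. IFIH1 spans chr2:162267074-162318684, IRF1 chr5:132481609-132490773 and RIGI chr9:32455302-32526196. The 3 IFIT genes are neighbours, with IFIT2 at chr10:89302046-89309271, IFIT3 at chr10:89327997-89340968 and IFIT1 at chr10:89392623-89406487. MX1 spans chr21:41420558-41459214. Where on a transcript each probe binds is not given in the sources used here.

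All levels below are log2 processed intensities after quantile normalization of the arrays of 1 time point, differences are on the same log2 scale, and a gene stands for its brightest probe. Well above background is the scanner software's own rating of a spot. Array medians of the processed intensity ran from 24.4 to 57.2 at 24 h and from 20.4 to 32.2 at 48 h, and 58.5% to 71.7% of probes were well above background on an array. Probes brighter than the negative controls on 3 or more arrays were tested, which left all 9 genes at 24 h and 8 at 48 h. A call required a log2 difference of at least 0.5 in either direction with an adjusted p below 0.01 (limma, Benjamini-Hochberg over all probes tested). The single TAPIR-2 probe shared by both array versions had a mean of 5.04 ± 0.185 (SD, n = 4) with si-SCRL and 4.07 ± 0.743 (SD, n = 4) with si-A2 at 24 h, a difference of -0.97 that did not pass the test (limma adjusted p = 0.242). At 48 h the same probe differed by 0.24 (limma adjusted p = 0.713), and no probe of TAPIR-1 was found, so these arrays do not check the knockdown. Markers of LNCaP cells were well above background on every array (8 of 8). The leukocyte markers with a probe, 5 at 24 h and 4 at 48 h, received the same rating on every array, although no such cells are labelled, so the rating alone does not show that a gene is expressed. The mean leukocyte marker level lay between 5.99 and 6.99 with si-SCRL, 6.78 and 7.02 with si-A1 and 6.91 and 7.05 with si-A2 at 24 h, none of these markers was called, and their part in the results was not tested.

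At 24 h, none of the 9 genes was called after si-A1 or after si-A2. Over all named genes, 1.72% were called after si-A1 and 1.56% after si-A2. GBP1 stood nearest to a call, with a mean more than 2 log2 units above the control after si-A1 and no such difference after si-A2. The 3 IFIT genes, MX1, IRF1 and both sensors were, by their brightest probes, within 0.6 of the control after either siRNA, and none of them passed the test. The median difference over the 9 genes was 0.02 with si-A1 and -0.15 with si-A2, beside 0.03 over all genes tested in both comparisons. Over the 8 of them well above background on 3 or more arrays, it was 0.14 with si-A1 and -0.17 with si-A2.

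GBP1 encodes a guanylate-binding protein, a large GTPase induced most strongly by interferon gamma. Its log2 intensity was 3.70, 3.46, 3.41 and 3.17 with si-SCRL, none of them well above background. After si-A1 it was 6.11, 5.84, 5.99 and 4.81, all well above background. After si-A2 it was 4.11, 2.75, 4.35 and 3.18, with 1 of 4 well above background. Every si-A1 array was thus higher than every other array of 24 h, while si-A2 and si-SCRL overlapped. The difference of si-A1 from si-SCRL was 2.25 (SE 0.378, 95% confidence interval 1.42 to 3.09, limma adjusted p = 0.0101), just above the threshold of 0.01 and below 0.05. Because the control was not above background, the fold is only a bound, at least 3.92-fold higher with si-A1. Within the slides the difference was 2.39 and 2.11. At an adjusted p below 0.05, GBP1 was the single gene of the 9 called after si-A1, where 0.42% of all genes were called in that direction.

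The negative control spots decide which probes enter the adjustment. Leaving out those spots that the scanner software had marked as outliers was settled after the values of these genes had been seen, and with the marked spots kept the adjusted p of GBP1 was 0.00942, a call. Of 27 other settings tried, 14 called GBP1 and 13 did not, with the adjusted p between 0.00412 and 0.0417 over the 25 that kept the call rule. The direction was the same in all of them. The size was not, with log2 differences from 0.73 under normexp background correction to 2.58, the lower of which is less than the bound given above. That correction added an offset of 50 to the intensities, which shrinks log2 differences of dim probes. GBP1 lay at processed intensities of 7.23 to 11.6 with si-SCRL and 23.3 to 96.7 with si-A1. The correction also started from the median signal and background intensity in place of the processed intensity. No other offset was tried, so what lowered the value to 0.73 was not tested.

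GBP1 after si-A2 differed from the control by 0.16 (95% confidence interval -0.67 to 1.00, limma adjusted p = 0.901). Set directly against si-A1, si-A2 was lower by a log2 difference of -2.09 (SE 0.378, 95% confidence interval -2.92 to -1.26, limma adjusted p = 0.0257), so the siRNAs differed at 0.05 and not at 0.01. In that comparison 0.545% of all genes were called at 0.01 and 0.705% were called lower at 0.05. Of the 9 genes, GBP1 and IFIT2 did not overlap between the 2 siRNAs, beside 13.7% of all genes.

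ISG15, a ubiquitin-like protein that is conjugated to other proteins during the interferon response, was well above background on every array. Its log2 intensity was 10.36, 10.37, 10.53 and 10.03 with si-SCRL, 10.55, 10.62, 10.54 and 10.64 with si-A1, and 10.66, 10.49, 10.43 and 10.19 with si-A2. The si-A1 arrays were all above the control arrays, by a margin smaller than the spread of the control. The difference was 0.26 after si-A1 (95% confidence interval -0.05 to 0.58, limma adjusted p = 0.469), against 0.12 with si-A2 (limma adjusted p = 0.798). ISG15 and GBP1 were the only genes of the 9 whose si-A1 and si-SCRL arrays did not overlap at 24 h, beside 12.2% of all genes, and after si-A2 none was separated, beside 9.76%.

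**Figure D1:**
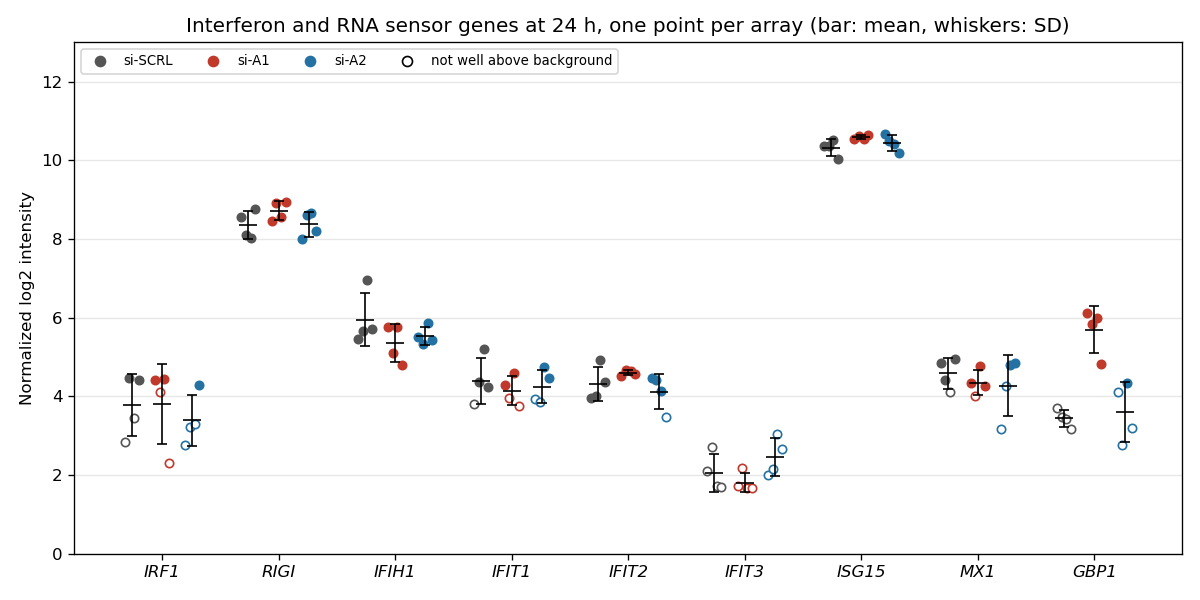
Log2 normalized intensity of the 9 genes at 24 h, side by side in 1 panel with 1 point per array, for si-SCRL, si-A1 and si-A2 (4 arrays each). Filled points were well above background and open points were not, bars are means and whiskers 1 SD. GBP1 after si-A1 lies between 4.81 and 6.11, above all arrays of the other siRNAs, and IFIT3 has open points throughout.

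The sensors were measured well above background on all 12 arrays of 24 h by their brightest probes. RIGI had a mean of 8.36 ± 0.360 (SD, n = 4) with si-SCRL, 8.72 ± 0.243 (SD, n = 4) with si-A1 and 8.37 ± 0.321 (SD, n = 4) with si-A2. Its difference was 0.36 after si-A1 (95% confidence interval -0.13 to 0.85, limma adjusted p = 0.526) and 0.01 after si-A2 (95% confidence interval -0.49 to 0.50, limma adjusted p = 0.992). A second, dim RIGI probe pointed the other way, with -0.61 after si-A1 (limma adjusted p = 0.284), against -0.56 with si-A2 (limma adjusted p = 0.366). That probe was well above background on 2 of 4 control, 2 of 4 si-A1 and 0 of 4 si-A2 arrays. IFIH1 was at 5.47, 5.66, 6.95 and 5.70 with si-SCRL, at 5.75, 5.10, 5.76 and 4.81 with si-A1 and at 5.50, 5.34, 5.85 and 5.44 with si-A2. A single control array, replicate 3, lay above all others, and the groups overlapped. The IFIH1 difference was -0.59 after si-A1 (SE 0.320, limma adjusted p = 0.475), against -0.41 with si-A2 (limma adjusted p = 0.684).

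The IFIT proteins bind viral RNA that lacks the host's cap modifications. IFIT1 was well above background on 7 of 12 arrays and differed by -0.25 after si-A1 (limma adjusted p = 0.716), against -0.15 with si-A2 (limma adjusted p = 0.874). IFIT2, on 11 of 12 arrays, differed by 0.29 after si-A1 (limma adjusted p = 0.654), and with si-A2 by -0.19 (limma adjusted p = 0.822). Its levels after si-A2 were all below those after si-A1, with a difference of -0.48 that did not pass the test (limma adjusted p = 0.563). The other IFIT2 probe gave -0.12 and -0.30 for the same comparisons with the control. IFIT3 did not rise well above background on a single array, at log2 intensities of 1.66 to 3.05, so no fold is given.

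MX1, a GTPase that blocks the replication of RNA viruses, was well above background on 8 of 12 arrays and differed by -0.23 (limma adjusted p = 0.789) after si-A1 and -0.31 (limma adjusted p = 0.766) after si-A2. IRF1 is a transcription factor induced by interferon gamma, and its promoter window holds the GAS match printed above. Its values were 2.83, 4.45, 3.45 and 4.42 with si-SCRL, 4.40, 4.12, 4.43 and 2.30 with si-A1 and 2.76, 3.21, 3.30 and 4.30 with si-A2. Only 5 of the 12 were well above background and the groups overlapped widely. The difference after si-A1 was 0.02 with a 95% confidence interval of -1.19 to 1.24, which leaves room for a change of more than 2-fold in either direction.

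At 48 h, none of the 8 genes tested was called after either siRNA. Over all named genes, 6.69% were called after si-A1 and 0.375% after si-A2. ISG15 was higher on every si-A1 array than on every control array and missed the threshold narrowly. IFIT2 and IRF1 had positive differences after both siRNAs that did not pass the test, while GBP1 was not above the negative controls. The median difference over the 8 genes was 0.21 with si-A1 and 0.18 with si-A2, against 0.02 and -0.01 over all genes tested. Over the 7 of them well above background on 3 or more arrays, which leaves out IFIT3, it was 0.16 with si-A1 and 0.00 with si-A2.

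ISG15 at 48 h was at 10.22, 10.22, 9.90 and 9.86 with si-SCRL and at 10.81, 10.99, 10.50 and 10.70 with si-A1. With si-A2 it was at 10.59, 9.92 and 10.53. The si-A2 arrays spanned both other groups. The difference after si-A1 was 0.70 (SE 0.134, 95% confidence interval 0.39 to 1.00, limma adjusted p = 0.0114), a 1.62-fold higher intensity, with 0.68 and 0.72 on the single slides. At an adjusted p below 0.05 it was the single gene of the 8 called, where 4.96% of all genes were called higher. With the marked negative control spots kept, its adjusted p was 0.00628, and 9 of 27 other settings called it. With the dim array included the adjusted p was 1, and in that setting 24 probes in all were called in place of 2324. After si-A2 the difference was 0.35 (SE 0.146, 95% confidence interval 0.02 to 0.68, limma adjusted p = 0.287), and si-A2 against si-A1 gave -0.35 (limma adjusted p = 0.263). Separated groups alone are common here, since 18.7% of all genes did not overlap between si-A1 and si-SCRL at 48 h, and of the 8 genes ISG15 was the single one. None of the 8 was separated between si-A2 and si-SCRL, beside 13.2% of all genes, or between si-A2 and si-A1, beside 18.1%.

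GBP1 lay between 1.00 and 1.16 on all 11 arrays of 48 h, none of them well above background, so whether the 24 h difference persisted was not measurable. The time points used different array versions, and levels are not compared between them. IFIT3 again stayed near background on all arrays, at 1.06 to 3.20.

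**Figure D2:**
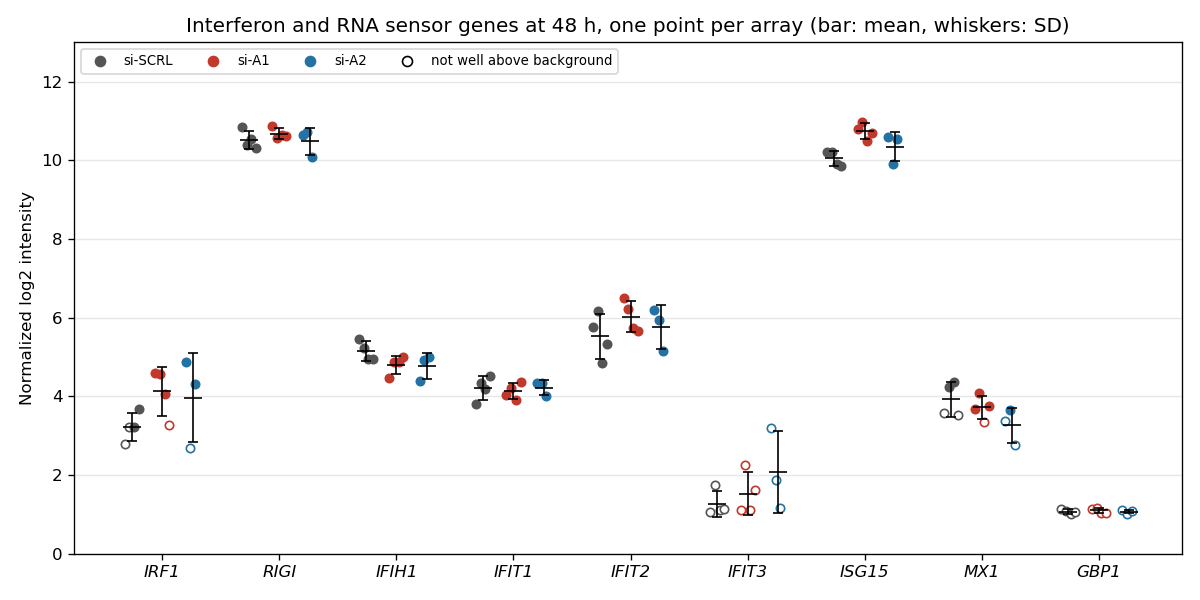
Log2 normalized intensity of the 9 genes at 48 h, side by side in 1 panel with 1 point per array, for si-SCRL and si-A1 (4 arrays each) and si-A2 (3 arrays). Filled points were well above background and open points were not, bars are means and whiskers 1 SD. ISG15 after si-A1 lies between 10.50 and 10.99, above the control arrays at 9.86 to 10.22, and GBP1 is flat near 1.

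RIGI had a mean of 10.52 ± 0.236 (SD, n = 4) with si-SCRL at 48 h, 10.68 ± 0.134 (SD, n = 4) with si-A1 and 10.48 ± 0.335 (SD, n = 3) with si-A2. The differences from the control were 0.16 after si-A1 (limma adjusted p = 0.613), against -0.01 with si-A2 (limma adjusted p = 0.988). The dim second probe differed by 0.63 after si-A1 (limma adjusted p = 0.371), against -0.70 with si-A2 (limma adjusted p = 0.466). That probe was well above background on 2 of 4 si-A1 arrays, 0 of 4 control arrays and 0 of 3 si-A2 arrays, so these sizes cannot be compared with those of the bright probe. IFIH1 was lower by -0.35 after si-A1 (limma adjusted p = 0.291), and with si-A2 by -0.39 (limma adjusted p = 0.39), neither past the test.

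IFIT2 differed by 0.49 after si-A1 (SE 0.197, 95% confidence interval 0.05 to 0.94, limma adjusted p = 0.152) and by 0.35 after si-A2 (limma adjusted p = 0.47). Its second probe gave 0.58 after si-A1 (limma adjusted p = 0.384) and 0.00 after si-A2. IFIT1 differed by -0.08 and 0.00. MX1 differed by -0.21 (limma adjusted p = 0.709) after si-A1 and -0.64 (SE 0.294, limma adjusted p = 0.333) after si-A2. IRF1 was at 2.80, 3.22, 3.21 and 3.67 with si-SCRL, at 4.60, 4.57, 4.05 and 3.28 with si-A1 and at 4.88, 2.69 and 4.32 with si-A2. Its si-A1 arrays were mostly higher, 3 of 4 above every control array, and the difference was 0.90 (SE 0.440, 95% confidence interval -0.10 to 1.90, limma adjusted p = 0.243). Within the slides that difference was 1.58 and 0.22. IRF1 was well above background on 2 of 4 control, 3 of 4 si-A1 and 2 of 3 si-A2 arrays.

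**Figure D3:**
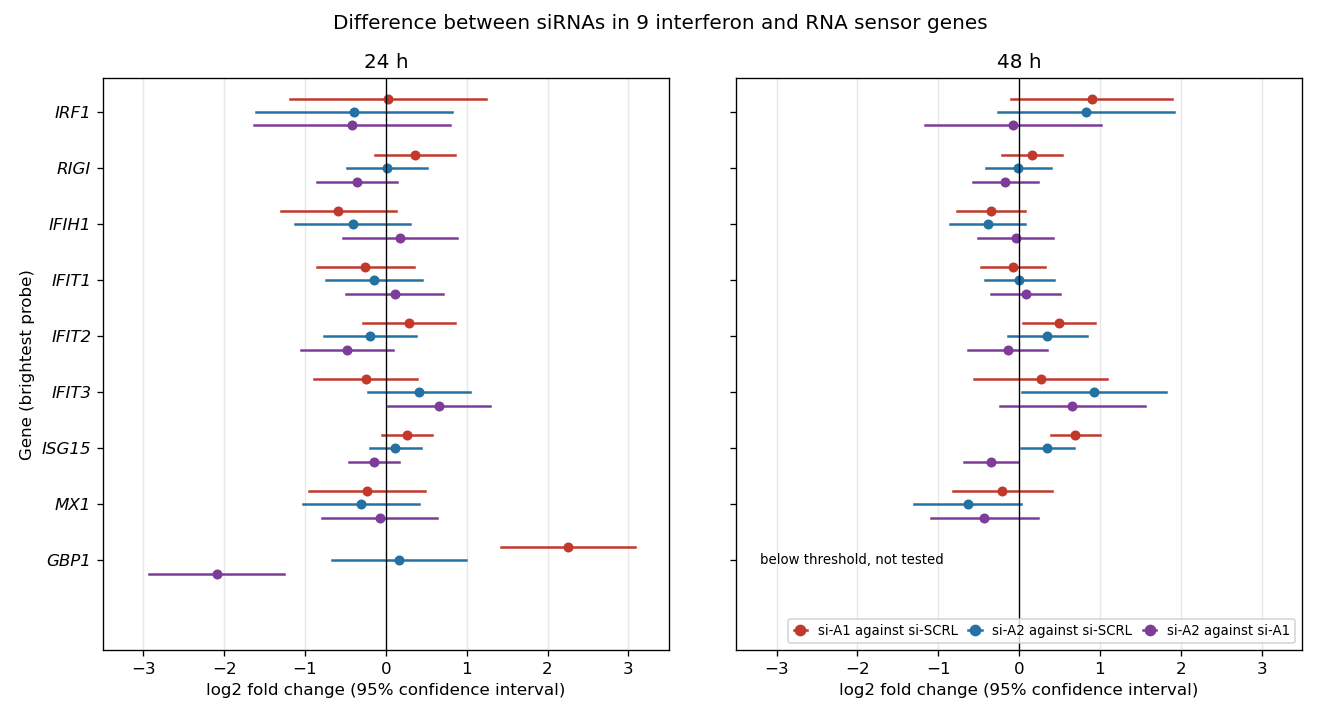
Log2 difference of each gene from si-SCRL for each siRNA, and of si-A2 from si-A1, at each time point, by the brightest probe, with 95% confidence intervals from the linear model. GBP1 after si-A1 at 24 h (2.25) is the largest, ISG15 after si-A1 at 48 h is 0.70 with an interval that does not reach 0, and GBP1 was not tested at 48 h. IFIT3 was near background on all arrays.

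Whether an siRNA acted differently at the 2 times was tested as an interaction over probes shared by the array versions. None of the genes passed in either interaction, where 0.123% of probes were called for si-A1 and 0.0226% for si-A2. The lowest adjusted p was 0.252, for the dim RIGI probe after si-A1. ISG15 after si-A1 changed by 0.41 between the times (SE 0.184, limma adjusted p = 0.367). GBP1 could not enter this test.

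At 24 h, an unadjusted p below 0.05 was reached by 1 of 9 genes after si-A1, 0 of 9 after si-A2 and 2 of 9 for si-A2 against si-A1, beside 15.5%, 13.5% and 13% of all genes tested by their brightest probes. At 48 h it was reached by 2 of 8, 2 of 8 and 1 of 8 in the same order, beside 31.3%, 19.2% and 20.9%. In no comparison was a member called. In the comparison of si-A2 with si-A1 at 48 h, 1.56% of genes were called.

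GBP1 belongs to a family of neighbouring genes, and the other 6 members with a probe, GBP2 to GBP7, were read beside it. At 24 h none was called, beside 1.72% of all genes after si-A1 and 1.56% after si-A2. GBP2, also induced by interferon gamma, was at 5.99, 5.68, 6.56 and 5.69 with si-SCRL, at 7.22, 6.85, 7.23 and 7.18 with si-A1 and at 6.29, 5.95, 6.35 and 6.21 with si-A2. All si-A1 arrays were above all others, as for GBP1. Of all genes, 12.2% did not overlap between si-A1 and si-SCRL and 13.7% between the 2 siRNAs. The difference after si-A1 was 1.14 (SE 0.193, 95% confidence interval 0.72 to 1.57, limma adjusted p = 0.0106), again between 0.01 and 0.05, and after si-A2 it was 0.22 (limma adjusted p = 0.715). Set against si-A1, si-A2 differed by -0.92 (limma adjusted p = 0.0495).

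GBP3 differed by 0.44 (limma adjusted p = 0.472) after si-A1, GBP4 by 0.34 (limma adjusted p = 0.549), GBP5 by 0.11 and GBP6 by -0.09, and GBP7 stayed near background on all 12 arrays. The median over the 6 genes was 0.26 with si-A1 and 0.11 with si-A2. At 48 h the GBP2 difference after si-A1 was 1.58 (SE 0.541, limma adjusted p = 0.0972), with 4 of 4 si-A1 arrays and 1 of 4 control arrays well above background. It was 1.03 without si-SCRL replicate 4 and 0.27 with normexp background correction, whose offset of 50 shrinks differences of dim probes. GBP4 differed by 0.35 at 48 h (limma adjusted p = 0.0316), which is under the 0.5 needed for a call. The 5 tested relatives had a median of 0.35 after si-A1 and 0.25 after si-A2, and none was called, beside 6.69% and 0.375% of all genes.

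**Figure D4:**
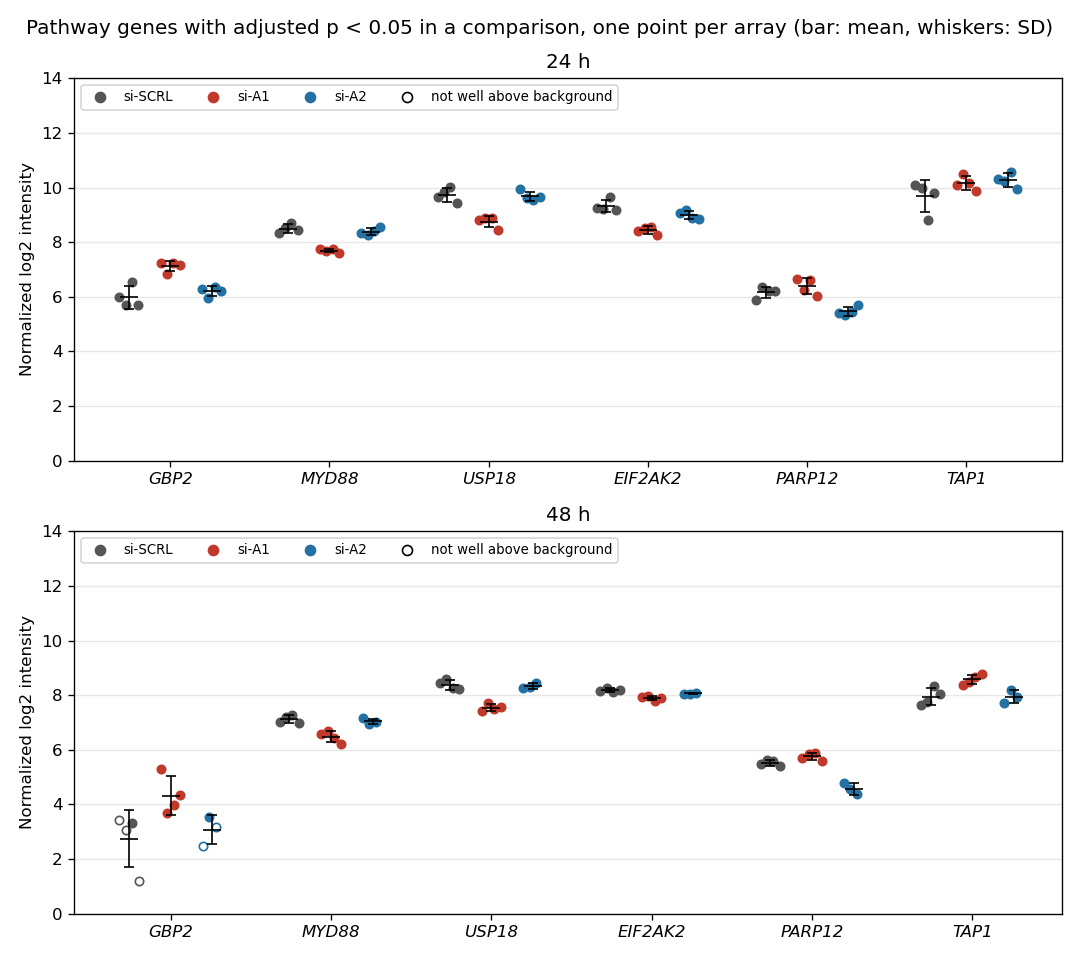
Log2 normalized intensity per array of GBP2, MYD88, USP18, EIF2AK2, PARP12 and TAP1 at 24 h and 48 h by siRNA, with filled points well above background, bars for means and whiskers for 1 SD. These 6 genes were picked after their values had been seen. GBP2 is higher with si-A1 on all arrays of 24 h, and MYD88 and USP18 are lower with si-A1 at both times.

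The pathway was then read from the sensor to the target genes with lists of further genes. Among 26 sensors and signalling genes, 24 were tested at 24 h and 1 was called after si-A1, where 1.61% of all genes were called lower. This was MYD88, the adaptor of most Toll-like receptors, at 8.33, 8.52, 8.70 and 8.43 with si-SCRL, 7.75, 7.67, 7.75 and 7.61 with si-A1 and 8.34, 8.25, 8.40 and 8.55 with si-A2. It fell by 0.80 after si-A1 (SE 0.124, limma adjusted p = 0.00601), all si-A1 arrays lying below all others, and differed by -0.11 after si-A2 (limma adjusted p = 0.778). Of all genes, 12.2% did not overlap between si-A1 and si-SCRL at 24 h and 13.7% between the 2 siRNAs. At 48 h MYD88 fell by 0.64 after si-A1 (limma adjusted p = 0.00835) and differed by -0.06 after si-A2 (limma adjusted p = 0.873). These calls were lost in 16 of 27 other settings at 24 h and in 17 of 26 at 48 h, where the replicate block gave a limma adjusted p of 0.0182.

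EIF2AK2, the kinase PKR that halts translation on binding double-stranded RNA, had a mean of 9.31 with si-SCRL and 8.43 with si-A1 at 24 h, a difference of -0.88 (SE 0.151, limma adjusted p = 0.0112) that missed the call. After si-A2 it differed by -0.32 (limma adjusted p = 0.45). MAVS, the adaptor of both sensors, differed by 0.04 (95% confidence interval -0.22 to 0.30) after si-A1 at 24 h. DHX58, the third RIG-I-like helicase, differed by 0.40 (limma adjusted p = 0.526) and TLR3, the endosomal receptor for double-stranded RNA, by 0.13 (limma adjusted p = 0.84). The median of the sensor list was -0.05 with si-A1 and -0.08 with si-A2 at 24 h, and -0.03 and -0.06 at 48 h. There MYD88 was its only call after si-A1, where 5.21% of all genes were called lower.

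Of 17 interferon genes with a probe, 16 were tested at 24 h and 14 at 48 h, and none was called after either siRNA. Over all genes, 1.72% were called after si-A1 and 1.56% after si-A2 at 24 h, and 6.69% and 0.375% at 48 h. IFNB1, the first interferon made on sensing of RNA, and IFNG were rated well above background on 0 arrays at either time. Altogether 7 of the 17 had no such array at 24 h and 6 of 17 none at 48 h, while IFNA4, IFNL1 and IFNL2 were rated well above background on all arrays of both times. After si-A1 at 48 h, IFNL3 differed from the control at an adjusted p below 0.05 (limma adjusted p = 0.045), where 4.96% of all genes were called higher. It was well above background on 1 of 4 si-A1 arrays and 0 of 4 control arrays, at least 1.01-fold higher. All 13 receptor and signal-transduction genes were tested at both times. JAK2 and TYK2, kinases of the interferon receptors, were well above background on all arrays, and JAK1 on 10 of 12 at 24 h and 4 of 11 at 48 h. After si-A1 at 24 h the differences were 0.04 for JAK1, 0.01 for JAK2 and -0.29 for TYK2, none called. The receptor chain IFNAR1 differed by -0.25 after si-A1 at 24 h and by -0.56 at 48 h (limma adjusted p = 0.0248), and IFNGR2, a chain of the interferon gamma receptor, by 0.45 and by 0.68 (limma adjusted p = 0.0217). The one call was STAT2 after si-A1 at 48 h, where 1.48% of all genes were called higher. STAT2 rose by 0.68 (limma adjusted p = 0.00703, groups overlapping) and differed by 0.30 after si-A2 (limma adjusted p = 0.3). That call was lost in 16 of 27 other settings, the replicate block among them (limma adjusted p = 0.0157). IRF9, which joins STAT2 in the ISRE-binding complex, differed by 0.15 at 24 h and -0.31 at 48 h after si-A1.

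The largest list held 46 further genes induced by type I interferon, of which 41 were tested at 24 h and 42 at 48 h. None was called at 24 h, and the median difference was -0.04 with si-A1 and -0.01 with si-A2. USP18, a protease that removes ISG15 from proteins and dampens the interferon receptor, was at 9.65, 9.84, 10.03 and 9.44 with si-SCRL and at 8.82, 8.87, 8.89 and 8.44 with si-A1 at 24 h. The groups did not overlap, beside 12.2% of all genes. The difference was -0.98 (SE 0.167, limma adjusted p = 0.0108), with -0.06 after si-A2 (limma adjusted p = 0.923).

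At 48 h, 1 gene of this list was called higher and 2 lower after si-A1, where 1.48% and 5.21% of all genes were. ISG20, an exonuclease that degrades viral RNA, rose by 1.15 (SE 0.191, limma adjusted p = 0.00615) and differed by 0.29 after si-A2 (limma adjusted p = 0.543). USP18 fell by 0.83 (SE 0.114, limma adjusted p = 0.00246) and differed by -0.03 after si-A2. SP100, a nuclear body protein, fell by 0.89 after si-A1 (limma adjusted p = 0.00118), and with si-A2 by 0.95 (limma adjusted p = 0.00984), the single call of the list after si-A2, where 0.331% of all genes were called lower. With the replicate block the limma adjusted p was 0.0157 for ISG20 and 0.0331 for SP100 after si-A2, both calls lost, while USP18 and SP100 after si-A1 stayed called. DDX60, a helicase that assists RIG-I, differed by -1.16 (limma adjusted p = 0.0139) after si-A1 and -1.27 (limma adjusted p = 0.0437) after si-A2. Both lay below 0.05, a level at which 7.9% of all genes were lower with si-A1 and 2.44% with si-A2. Its probe was well above background on 5 of the 11 arrays of 48 h, so the size of these differences is uncertain.

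Between the siRNAs at 48 h, 3 genes of the list were called, 1 higher and 2 lower with si-A2, where 1.16% and 0.399% of all genes were. PARP12, a mono-ADP-ribosyltransferase, was lower with si-A2 at 4.77, 4.55 and 4.37 than with si-A1 at 5.71, 5.85, 5.89 and 5.61, and fell by 1.19 (SE 0.123, limma adjusted p = 0.00261). At 24 h the same comparison gave -0.91 (limma adjusted p = 0.0347). HERC6 fell by 0.91 in si-A2 against si-A1 (limma adjusted p = 0.00866), and TDRD7 rose by 0.80 (limma adjusted p = 0.007). Under the replicate block PARP12 stayed called, whereas HERC6 (limma adjusted p = 0.0329) and TDRD7 (limma adjusted p = 0.03) did not.

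Among 30 genes typical of interferon gamma, 29 were tested at 24 h and 28 at 48 h. None was called at 24 h, beside 1.72% of all genes after si-A1 and 1.56% after si-A2. At 48 h 1 was called, after si-A1, where 1.48% of all genes were called higher. This was TAP1, a subunit of the peptide transporter for antigen presentation, which rose by 0.64 (SE 0.107, limma adjusted p = 0.00631), from 7.63, 7.76, 8.32 and 8.04 with si-SCRL to 8.38, 8.49, 8.67 and 8.76 with si-A1, and differed by -0.05 after si-A2. The replicate block ended this call (limma adjusted p = 0.0146). The list's median was 0.06 after si-A1 at 24 h and 0.13 at 48 h. CXCL10 and CXCL11, chemokines usually among the strongest interferon targets, were rated well above background on none of the 12 arrays of 24 h.

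Of 22 NF-κB target genes, the other arm downstream of the RNA sensors, 19 were tested at 24 h and 20 at 48 h. None was called after either siRNA, beside 1.72% of all genes after si-A1 and 1.56% after si-A2 at 24 h. At 48 h these shares were 6.69% and 0.375%. The median of this list was 0.01 after si-A1 at 24 h and 0.33 at 48 h, and -0.02 after si-A2 at both times. Over all genes tested it was 0.02 after si-A1 at 48 h. In that comparison 15 of the 20 differences were positive, and 8 had an unadjusted p below 0.05, beside 31.3% of all genes. At an adjusted p below 0.05, 1 gene was higher, beside 4.96% of all genes. For si-A2 against si-A1 at 48 h, 3 were lower at 0.05, beside 1.65%.

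**Figure D5:**
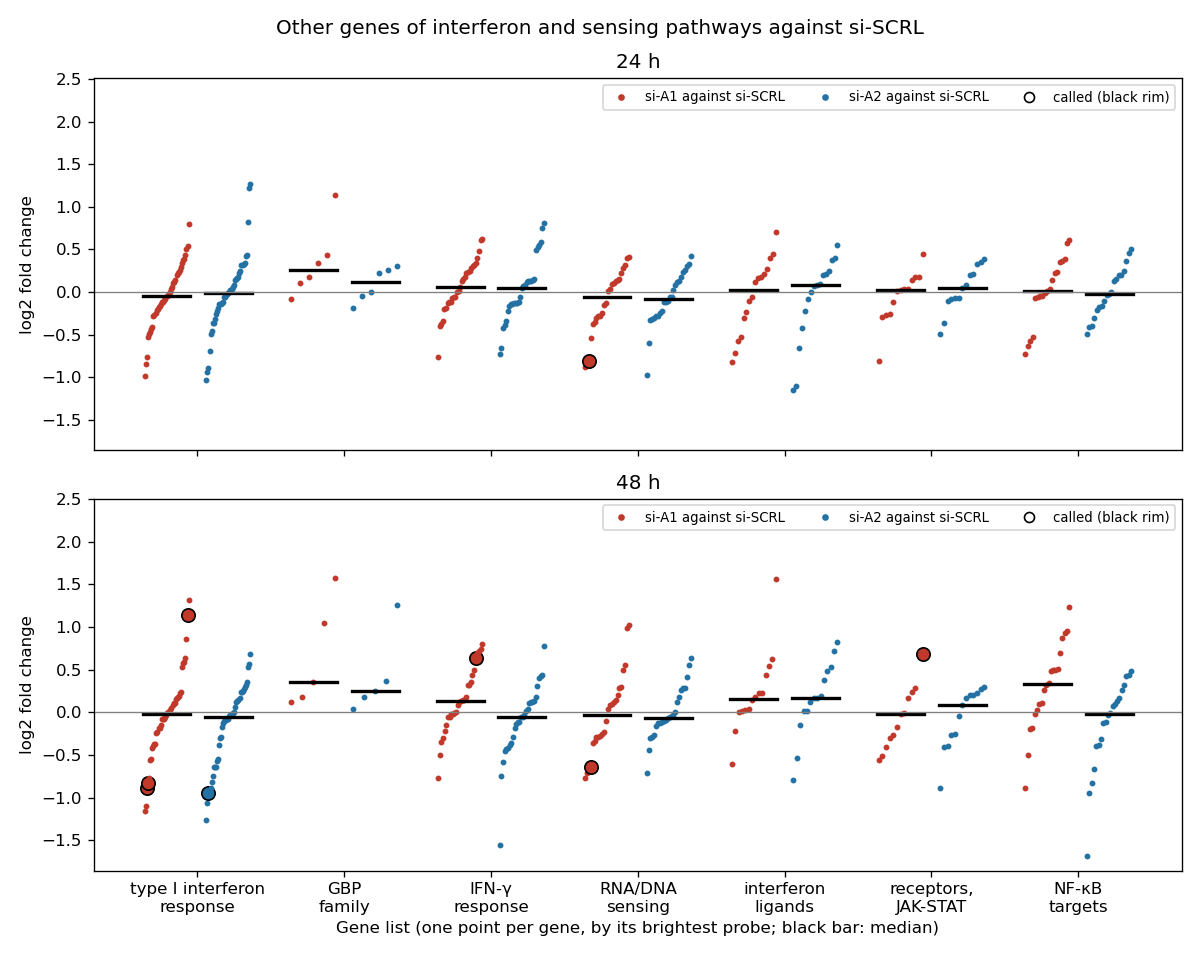
Log2 difference from si-SCRL of every tested gene of each pathway list, by siRNA and time point, 1 point per gene by its brightest probe, black bars at the list medians and black rims on called genes. Medians lie between -0.08 and 0.35, with calls in single genes such as MYD88 (-0.80 at 24 h).

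The genes whose level followed that of GBP1 most closely over the 12 arrays of 24 h were WNK3 (Pearson's r = 0.927), CUL7 (0.908), UAP1L1 (0.903), ANKRD46 (0.902) and MED8 (0.900). The arrays share the siRNA groups, so a gene that differs with si-A1 correlates by design, and the r values are descriptions. WNK3, a kinase that regulates ion transport, was called higher after si-A1, by 0.99 (limma adjusted p = 0.00521), and differed by 0.08 after si-A2. Of the 8 other members, ISG15 had the highest r with GBP1 at 0.568, followed by IFIT2 at 0.441 and RIGI at 0.371. IRF1 was at 0.191, and IFIT1, MX1, IFIH1 and IFIT3 had values between -0.30 and -0.04.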

How the data were processed

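RNA of LNCaP cells was hybridised to 24 one-colour Agilent arrays. The authors scanned them with Agilent Feature Extraction 11.5.1.1 and deposited a processed intensity per spot, background-subtracted within the array and not normalized between arrays, with the median signal and background intensity. Separately, log2 values were deposited for each time point, quantile-normalized over all spots. Their processing notes name R 3.4.3, limma 3.34.8 and hg38.

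From the processed intensity, log2 values without control spots were quantile-normalized within a time point, spots flagged by the software as outliers were removed, and repeats of a probe averaged. Quantile normalization hides a shift of all genes. Probes were named through RefSeq accessions (29033 of 50599 at 24 h, 31104 of 58201 at 48 h). Tested probes (46664 and 51195) were those that on 3 or more arrays were brighter than a threshold, set 3 SDs above the mean of the 308 negative controls. Control spots marked as outliers were left out of that threshold, a choice made after the values of the genes had been seen. The dim array of si-A2 replicate 2 at 48 h was left out. The study's filter on the interquartile range was used only as an alternative. The precision is limited by signal over background and by the number of arrays. The median residual SD was 0.331 at 24 h and 0.263 at 48 h.

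Fits used limma 3.58.1 (lmFit, eBayes) under R 4.3.3, with statmod (1.5.0), data.table (1.17.8) and jsonlite (2.0.0), for all 3 siRNAs of a time point with the slide as a term, and tested on simulated data. Each slide held 2 replicates of each siRNA. Position in a slide row was the same for all arrays of an siRNA, so position and siRNA cannot be told apart. Folds of a probe not well above background in 1 group are bounds against the dimmest probe well above background. Deviations of same-numbered samples correlated at -0.137 to 0.153 at 24 h, which does not pair them, and at 0.155 to 0.292 over the 10 pairs at 48 h, where samples of 1 slide with other numbers reached 0.077 to 0.238. These ranges overlap, so at 48 h the numbers may mark pairs, on the data alone. The main fit did not use such pairs, and all 48 h results above come from it unless the replicate block is named. With the replicate number as a block, the probes called at 48 h were 1324 after si-A1, 0 after si-A2 and 105 for si-A2 against si-A1, in place of 2324, 112 and 506, and no member was called there.

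The 9 genes, the lists and the tests were chosen with earlier results of these data known. Genes named were the 9, the called genes of the lists, the interferon ligands, receptors and JAK kinases, the GBP genes and the 5 genes most correlated with the called member of the largest change. Since no member was called, GBP1 took that place. GBP1, the 6 genes plotted together and other uncalled list genes were singled out after their values were seen. Alternatives were other background, scaling, filter, block and call settings, the authors' log2 values, and each array left out. A few genes are not reported here.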

Additional observations from a re-analysis of the deposited data

Results flagged for a closer look

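In 5 of 50 groups of 4 arrays, 1 array stood apart from the rest by Dixon's criterion at the 95% level, where chance gives about 5%. IFIH1 with si-SCRL at 24 h was highest in replicate 3, at 6.95 against 5.70 for the next array (ratio 0.841). IRF1 with si-A1 at 24 h was lowest in replicate 4, at 2.30 against 4.12 (ratio 0.856). The dimmer IFIT2 probe of 24 h with si-A2 was lowest in replicate 1, at 3.51 against 4.22 (ratio 0.867). IFIT3, not well above background on any array, was highest at 2.17 with si-A1 at 24 h in replicate 2 (next 1.73, ratio 0.870) and at 1.74 with si-SCRL at 48 h in replicate 2 (next 1.13, ratio 0.887).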

How the results depend on the processing

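The number of members called, 0 in each of the 8 comparisons, became 1 in some settings. After si-A1 at 24 h it was 1 (GBP1) at an adjusted p below 0.05, with spots marked as outliers kept, with marked negative controls kept (added after seeing the data), with probes whose interquartile range reached 0.5, with no slide term or the slide as a random block, with normexp, with only the groups compared, with the authors' log2 values, with probes well above background on at least 3 arrays, and with the replicate block, where it was also 1. Leaving out 1 array gave 0 to 1, with 1 without si-A1 replicate 4, si-A2 replicate 2 or si-A2 replicate 3. After si-A1 at 48 h it was 1 (ISG15) at an adjusted p below 0.05, with marked spots or marked negative controls kept, normexp, only the groups compared, scaling on the 75th percentile, and probes well above background. Leaving out 1 array gave 0 to 1, with 1 without si-A2 replicate 3 or 4. For si-A2 against si-A1 at 24 h it was 1 (GBP1) at an adjusted p below 0.05. The other 5 comparisons kept 0 throughout. The replicate block changed no other call among the members. The log2 difference of GBP1 after si-A1 at 24 h lay between 0.73 (normexp with an offset of 50) and 2.58, that of ISG15 after si-A1 at 48 h between 0.65 and 0.74. Counts over all probes moved more: with si-A1 they were 482 at 24 h (range 172 to 989) and 2324 at 48 h (range 24 to 5007), with si-A2 414 (range 186 to 798) and 112 (range 0 to 1004), and between the siRNAs 153 (range 27 to 599) and 506 (range 0 to 1812). Of the list genes called at 48 h, over 27 settings SP100 kept its call after si-A1 in 25 and after si-A2 in 9, USP18 in 24 and PARP12 in 20, whereas calls were lost in 11 for ISG20, 15 for TAP1, 16 for STAT2, 17 for TDRD7 and 18 for HERC6, and in 17 of 26 for MYD88. The causes were not tested. Members near background, IFIT3 at both times and GBP1 at 48 h, are limited by signal.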

Other observations

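A marker of the LNCaP line moved with si-A1 at 48 h beside the interferon genes. KLK2, an androgen-regulated protease, fell by 1.07 (limma adjusted p = 0.00136). Of the interferon gamma list, CASP4, a caspase that senses bacterial lipopolysaccharide, differed by -0.76 after si-A1 at 24 h (limma adjusted p = 0.0258), not a call.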
